A study of Mus musculus with 6 samples.

Results

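Tigit, Cd96, Cd226 and Crtam encode receptors of the immunoglobulin superfamily on T cells and natural killer (NK) cells that bind nectins and nectin-like proteins on other cells. They were described here in CD8 T cells sorted from mouse pancreas, on 6 microarrays. All 4 receptor genes were chosen by name, each had 1 probe with a single gene symbol, and they are 4 of the 19929 genes with such a probe. All 4 were among the 13950 genes bright enough to be tested. The cells carried the AI4 antigen receptor and came either from Rip-B7xAI4 animals, which resisted type 1 diabetes, or from AI4 animals, which developed it. Both groups had the C57BL/6.H2g7/g7 background, and the sources used here give no ages. In Rip-B7x mice the rat insulin promoter drives B7x, an inhibitory ligand of the B7 family also called Vtcn1, in beta cells. The T cells themselves were thus not the site of the transgene. There were 3 arrays for each group, called biological replicates by the labels, each of cells from pooled pancreata sorted with an antibody to CD8 and the MimA2/H-2Db tetramer. Resistance to diabetes went together with the transgene, so B7x and disease state cannot be told apart as sources of a difference.

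Among these receptors, TIGIT, CD226 and CD96 are rivals for a shared ligand. TIGIT, an inhibitory receptor, and CD226, a costimulatory receptor also called DNAM-1, both bind the poliovirus receptor encoded by Pvr, and TIGIT binds it more tightly. CD96 binds Pvr as well and lowers the activity of mouse NK cells. CRTAM, which activated CD8 T cells display, binds the nectin-like protein encoded by Cadm1. Tigit RNA is known to be raised in regulatory T cells, activated NK cells and CD8 T cells under lasting antigen stimulation.

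Tigit and Cd96 lie on the same chromosome and gave different results below, so the 250 bases before the start of each gene are shown side by side. They are RefSeq sequences of build GRCm38.p6, and the promoter set used here held an entry for 2 of the 4 receptor genes. The window of Tigit lies at chr16:43664185-43664434 and that of Cd96 at chr16:46120249-46120498, both on the minus strand, written 5′ to 3′. Capitals mark the letters TGTGGT, known from Runx factors, and GGAAA, known from NFAT factors, on either strand.
Tigit: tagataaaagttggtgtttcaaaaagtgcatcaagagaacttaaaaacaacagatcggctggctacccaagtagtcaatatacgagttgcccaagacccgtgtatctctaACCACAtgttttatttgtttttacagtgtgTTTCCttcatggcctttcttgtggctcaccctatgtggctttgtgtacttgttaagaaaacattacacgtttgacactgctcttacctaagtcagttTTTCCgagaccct
Cd96: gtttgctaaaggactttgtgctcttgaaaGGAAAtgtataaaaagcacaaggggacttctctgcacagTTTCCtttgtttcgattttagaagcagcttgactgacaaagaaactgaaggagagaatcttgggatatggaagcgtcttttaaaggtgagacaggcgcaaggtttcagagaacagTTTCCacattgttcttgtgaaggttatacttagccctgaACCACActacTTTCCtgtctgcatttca
The Runx letters occurred once in each, with the first base 140 bases before the start in Tigit and 28 bases before it in Cd96. The NFAT letters occurred 2 times before Tigit and 4 times before Cd96. Of 32851 promoter windows of this length, 14% held the Runx letters and 55.6% the NFAT letters. The letters TGANTCA of AP-1 and GGTGTGA of T-box factors, present in 6.75% and 3.33% of the windows, were found in neither. The marked motifs did not overlap each other, and these matches are letters only.

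Values are the authors' normalized log2 expression. Array medians lay between 5.94 and 6.08 in Rip-B7xAI4 and between 6.05 and 6.10 in AI4. The defining genes of the sort were bright: the mean of 10 measured T cell markers was 10.24 to 10.79 in Rip-B7xAI4 and 10.16 to 10.76 in AI4, with Cd8a at 9.21 to 10.42 in Rip-B7xAI4 and 10.10 to 10.89 in AI4. Myeloid markers set Rip-B7xAI4 replicates 1 and 3 apart. The mean of 19 measured of 20 listed markers was 8.91 and 8.95 there and 6.30 in Rip-B7xAI4 replicate 2, against 5.92 to 6.70 in AI4. Vtcn1 stood at 6.33, 6.13 and 6.23 in Rip-B7xAI4 and at 6.28, 5.92 and 6.09 in AI4, which checks nothing because the transgene acts in beta cells. Of 13950 tested genes, 0.00717% passed limma's adjusted p of 0.05, which is 1 gene, and 8.73% had an unadjusted p under 0.05.

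Tigit was higher on all 3 Rip-B7xAI4 arrays than on any AI4 array, while the other 3 receptor genes were not set apart by group. Tigit (probe 10439527) stood at 9.37, 9.65 and 9.04 log2 in Rip-B7xAI4 and at 6.98, 6.60 and 7.86 in AI4. The groups did not overlap, and the lowest Rip-B7xAI4 value exceeded the highest AI4 value by 1.18. A separation in this direction was found for 5.99% of the tested genes, and in either direction for 17.9%. The group means were 9.36 ± 0.30 in Rip-B7xAI4 and 7.15 ± 0.65 in AI4 (SD, n = 3 each). The difference was 2.21 ± 0.35 (SE) on the log2 scale, with a 95% interval of 1.38 to 3.04, which is 4.62-fold (2.59 to 8.24) on these normalized values. It did not pass adjustment over all genes (adjusted p = 0.171 by limma, unadjusted p = 0.000466). By size, 70 of the tested genes, or 0.502%, differed by as much in either direction, Tigit included, and by p it ranked 38. Over 15 alternative settings the difference lay between 1.94 and 2.59 and the adjusted p between 0.0462 and 0.813. The lowest of these came from weighting the arrays by their quality, and it was the 1 setting in which Tigit passed.

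**Figure D1:**
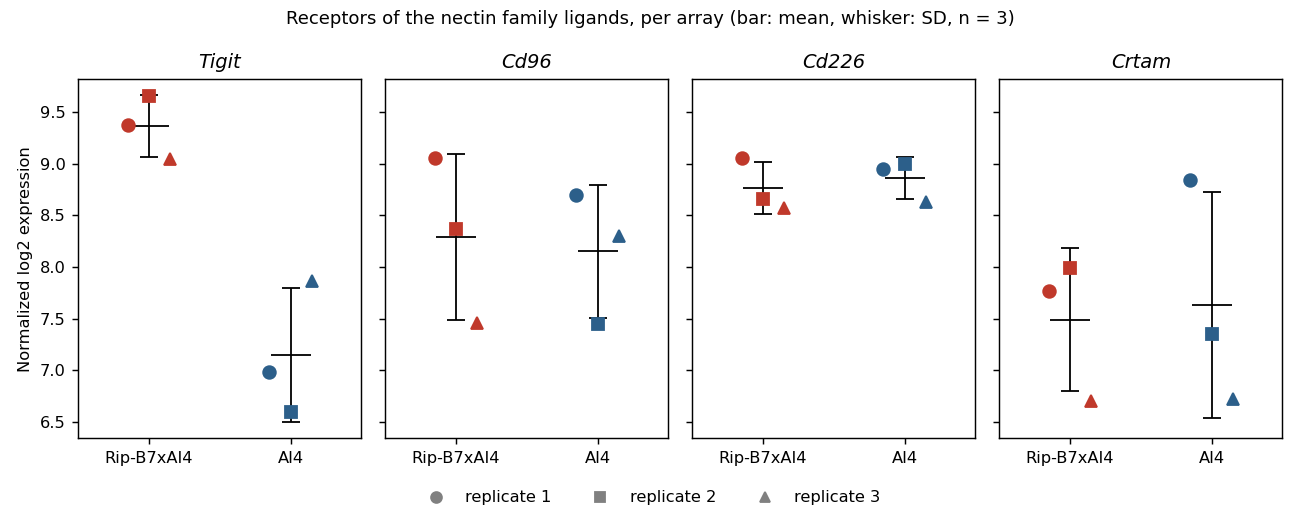
Normalized log2 expression of each receptor gene on the 6 arrays, with Rip-B7xAI4 in red, AI4 in blue, a symbol for each replicate number, bars for group means and whiskers for SD (n = 3). Tigit lies at 9.04 to 9.65 in Rip-B7xAI4 and at 6.60 to 7.86 in AI4, while the groups overlap for Cd96, Cd226 and Crtam.

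Cd226, the costimulatory rival of Tigit, was the steadiest of the receptor genes. Cd226 (probe 10457168) stood at 9.05, 8.66 and 8.57 log2 in Rip-B7xAI4 and at 8.95, 9.0 and 8.63 in AI4. The groups overlapped, and all 6 arrays lay within 0.48 of each other. The difference was -0.10 ± 0.20 (SE), with a 95% interval of -0.59 to 0.39 (adjusted p = 0.836 by limma). A difference of Cd226 as large as the lower bound for Tigit thus lay outside that interval.

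Cd96 and Crtam varied more between arrays than between groups. Cd96 (probe 10439744) stood at 9.05, 8.37 and 7.46 log2 in Rip-B7xAI4 and at 8.70, 7.45 and 8.30 in AI4. Each group held a low array, at 7.46 in Rip-B7xAI4 and 7.45 in AI4, and the groups overlapped. The means were 8.29 ± 0.80 in Rip-B7xAI4 and 8.15 ± 0.64 in AI4 (SD, n = 3 each), and the difference was 0.14 ± 0.48 (SE; 95% interval -1.0 to 1.29; adjusted p = 0.901 by limma). Its sign turned without AI4 replicate 2 (-0.21), without Rip-B7xAI4 replicate 1 (-0.24) and after quantile normalization (-0.06).

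Crtam (probe 10592503) stood at 7.77, 7.99 and 6.70 log2 in Rip-B7xAI4 and at 8.84, 7.35 and 6.72 in AI4. Its spread over the 6 arrays was 2.14, the widest of the receptor genes apart from Tigit, and AI4 replicate 1 held the highest value. The means were 7.49 ± 0.69 in Rip-B7xAI4 and 7.63 ± 1.09 in AI4 (SD, n = 3 each). The difference was -0.15 ± 0.59 (SE; 95% interval -1.56 to 1.27; adjusted p = 0.920 by limma). It was 0.46 without AI4 replicate 1, 0.24 without Rip-B7xAI4 replicate 3 and -0.61 without AI4 replicate 3. The intervals of Cd96 and Crtam are wide, and a change of 1 on the log2 scale in either direction lies inside that of Crtam. The misses therefore do not show that these genes were equal in both groups.

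Because TIGIT and CD226 compete for a ligand, the change of Tigit was set against that of each other receptor gene within each array. Tigit minus Cd226 was 0.33, 0.99 and 0.47 log2 in Rip-B7xAI4 and -1.96, -2.40 and -0.77 in AI4. The shift between groups was 2.31, and every Rip-B7xAI4 array lay above every AI4 array. Tigit minus Cd96 shifted by 2.07 and Tigit minus Crtam by 2.36, again with no overlap between groups. All 3 shifts use the same Tigit values, and Tigit alone differed by 2.21, so they do not count as 3 separate results. How often other pairs of genes separate in this way was not computed. Each of these 3 shifts had p = 0.10 in a two-sided exact permutation test, also after adjustment over the 3 pairs, which is the smallest p that 3 arrays against 3 allow. Only the shift is read here, since the level of 1 probe cannot be set against that of another. In root mean square terms, after each gene was centred on its own mean, the Tigit profile lay 1.16 from Cd96, 1.27 from Cd226 and 1.49 from Crtam. The other 3 receptor genes lay 0.55 to 0.66 from each other. This measure grows with the size of a gene's changes over the arrays, which includes the group difference of Tigit. The smaller distances therefore do not show that the other 3 share a profile.

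Tigit was read beside the myeloid markers. Rip-B7xAI4 replicate 1 had a Tigit value of 9.37 and a myeloid mean of 8.91, and replicate 3 had 9.04 and 8.95. Tigit peaked in Rip-B7xAI4 replicate 2, at 9.65, where the myeloid mean was 6.30 and within the AI4 range. Without Rip-B7xAI4 replicates 1 and 3 together, Tigit differed by 2.50, a value that rests on replicate 2 alone in that group. The part of myeloid cells in the Tigit difference was not tested. NK cells also use these receptors, and the mean of the NK list, of which 10 of 14 genes were measured, was 7.78, 7.07 and 7.80 in Rip-B7xAI4 and 6.28, 6.09 and 6.17 in AI4. That list includes Gzma, Prf1 and Klrc1, which effector CD8 T cells also express, and Tyrobp, which myeloid cells express. The other genes of the list are given without a claim that only NK cells express them. Of these genes, Ncr1 stood at 4.43, 4.42 and 5.86 in Rip-B7xAI4 and at 4.60, 4.87 and 4.56 in AI4, below the median of each array. Klra8 was below it as well, at 4.75, 4.48 and 6.00 in Rip-B7xAI4 and at 4.85, 4.91 and 4.42 in AI4. Itga2 was brighter, at 6.27, 6.01 and 6.62 in Rip-B7xAI4 and at 6.09, 6.24 and 5.78 in AI4. Ncr1, Klra8 and Itga2 were each highest in Rip-B7xAI4 replicate 3, and Klrk1, Fcgr3 and Klrb1c, given next, in Rip-B7xAI4 replicate 1. Klrk1 stood at 7.70, 7.61 and 7.38 in Rip-B7xAI4 and at 6.20, 4.84 and 7.49 in AI4. Fcgr3 stood at 7.89, 5.64 and 6.71 in Rip-B7xAI4 and at 6.28, 5.80 and 5.79 in AI4. It was thus highest in Rip-B7xAI4 replicates 1 and 3, the arrays with the high myeloid means. Klrb1c, which encodes NK1.1 and is also found on some activated T cells, was higher on every Rip-B7xAI4 array, at 6.18, 5.37 and 5.40, against 4.62, 4.75 and 4.57 in AI4. Klrb1c lay above the array median in Rip-B7xAI4 replicate 1, and 5.99% of the tested genes were separated in this direction. The part of NK cells in the Tigit difference was not tested.

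**Figure D2:**
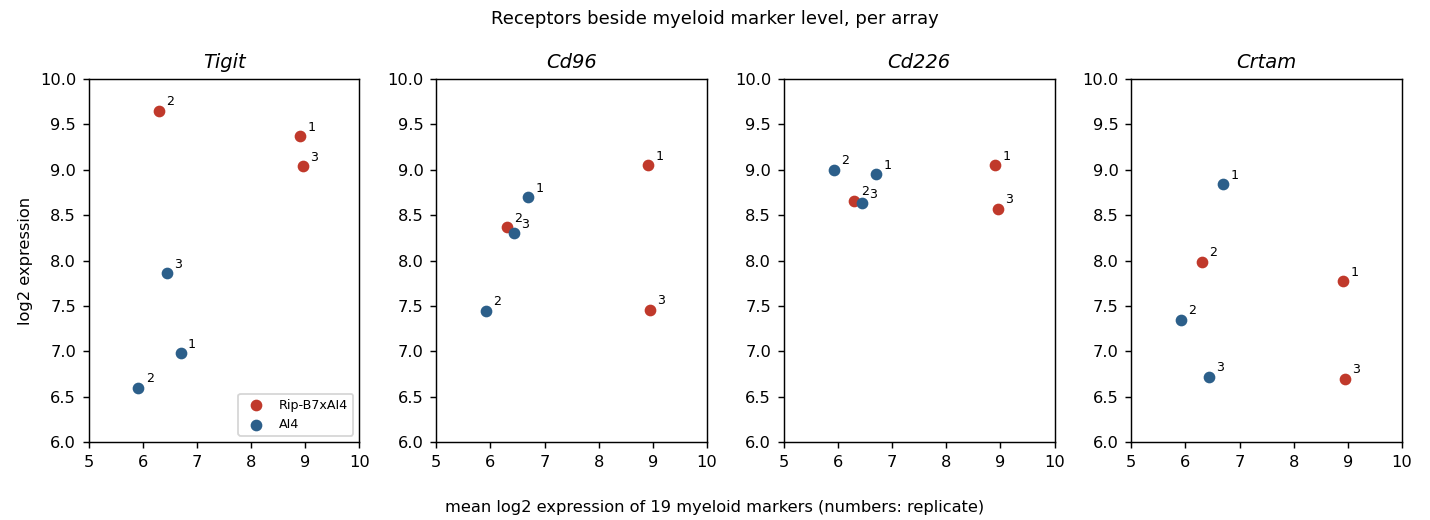
Log2 expression of each receptor gene (vertical axis) against the mean log2 expression of 19 myeloid markers (horizontal axis), with a point per array and its replicate number, Rip-B7xAI4 in red and AI4 in blue. Rip-B7xAI4 replicate 2 has the highest Tigit value, 9.65, at a myeloid mean of 6.30.

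Regulatory T cells carry Tigit too, so their genes were read beside it. The mean of 7 markers of CD4 and regulatory T cells was 7.06, 6.92 and 6.70 in Rip-B7xAI4 and 6.85, 6.39 and 6.72 in AI4. Foxp3, the factor that defines regulatory T cells, stood at 6.75 to 6.87 in Rip-B7xAI4 and 6.89 to 6.98 in AI4, and Cd4 at 5.47 to 6.24 in Rip-B7xAI4 and 5.49 to 5.89 in AI4. Il2ra, which activated CD8 T cells also express, stood at 6.97, 6.25 and 6.29 in Rip-B7xAI4 and at 6.32, 5.28 and 5.27 in AI4. Ctla4, another gene shared with activated CD8 T cells, stood at 10.75, 10.09 and 8.27 in Rip-B7xAI4 and at 9.98, 7.70 and 9.43 in AI4. The part of regulatory T cells in the Tigit difference was not tested. In these pooled sorts, more cells with Tigit and more Tigit RNA per cell cannot be told apart. The mean of the B cell markers was 6.82, 5.79 and 7.0 in Rip-B7xAI4 and 6.31, 5.84 and 6.38 in AI4. Beta cell, acinar, and endothelial and stromal markers had means of 5.48 to 6.24 in Rip-B7xAI4 and 5.68 to 6.59 in AI4.

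The genes whose profile over the 6 arrays was closest to Tigit were Fasl, Prc1 and Hells, out of 13035 tested genes with a known symbol. Likeness was the root mean square difference after centring, which was 0.14 log2 for Fasl, 0.15 for Prc1 and 0.28 for Hells, and the same 3 genes came first after quantile normalization. Fasl, which encodes a death ligand of cytotoxic T cells, stood at 7.68, 7.79 and 7.27 in Rip-B7xAI4 and at 5.53, 5.04 and 6.27 in AI4. Prc1, a protein of the mitotic spindle midzone, stood at 7.38, 7.65 and 7.07 in Rip-B7xAI4 and at 5.14, 4.71 and 5.55 in AI4. Hells, a chromatin remodelling helicase of dividing cells, stood at 8.31, 8.22 and 7.07 in Rip-B7xAI4 and at 5.55, 4.97 and 6.12 in AI4. In each of these genes, as in Tigit, AI4 replicate 3 was the highest AI4 array and replicate 2 the lowest. Because the genes were picked for their likeness to Tigit, this shared order and their group differences follow from the choice. Their differences were 1.97 ± 0.33 for Fasl, 2.23 ± 0.27 for Prc1 and 2.31 ± 0.43 for Hells (SE), with adjusted p of 0.190, 0.145 and 0.206 by limma.

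**Figure D3:**
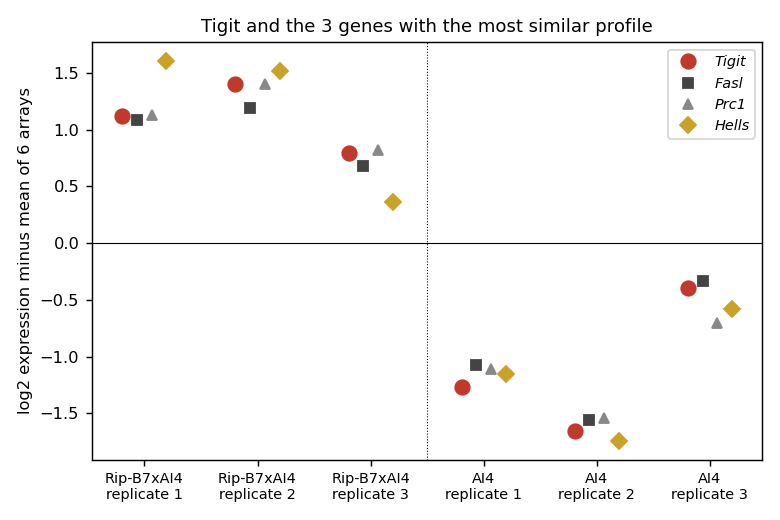
Log2 expression of Tigit, Fasl, Prc1 and Hells on each array after subtracting the gene's own mean over the 6 arrays (vertical axis), with Rip-B7xAI4 arrays left of the dotted line and AI4 arrays right of it. Fasl and Prc1 lie 0.14 and 0.15 from Tigit in root mean square terms, and Hells departs most in Rip-B7xAI4 replicates 1 and 3.

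No gene for a ligand or another nectin family protein passed, and 3 of the 9 with a probe, Pvr among them, were too dim in these sorted T cells to be tested. The list held 11 genes, of which 6 were tested, with 0 passing limma's adjusted p in either direction. At an unadjusted p under 0.05, 1 of the 6 was lower and 0 were higher, against 3.17% lower and 5.56% higher over all tested genes. The median difference was -0.22, against -0.10 over all tested genes. Pvr, the ligand shared by TIGIT, CD226 and CD96, was too dim to be tested, at 5.29, 5.29 and 5.24 log2 in Rip-B7xAI4 and 5.19, 5.08 and 5.77 in AI4. Nectin2, a further ligand of CD226 and TIGIT, was also too dim, at 5.33, 5.19 and 5.32 in Rip-B7xAI4 and 5.74, 5.36 and 5.40 in AI4. Nectin3 stood at 5.17 to 5.39 in Rip-B7xAI4 and 5.43 to 5.51 in AI4 and was not tested either. In each of these genes all 6 values lay below the median of their array. In Nectin2 and Nectin3 all Rip-B7xAI4 values lay below all AI4 values, which held for 11.9% of the tested genes. Cadm2 and Pvrig were not analysed here.

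Cadm1, which encodes the ligand of CRTAM, stood out on 1 array. It was at 6.74, 6.79 and 9.87 log2 in Rip-B7xAI4 and at 6.69, 6.85 and 7.0 in AI4. The value of Rip-B7xAI4 replicate 3 was far above the other 5, and the myeloid and B cell means were also highest on that array, at 8.95 and 7.0. Those means were nearly as high in Rip-B7xAI4 replicate 1, at 8.91 and 6.82, where Cadm1 was 6.74. The part of myeloid and B cells in the Cadm1 value was not tested. The difference of 0.95 ± 0.81 (SE; adjusted p = 0.644 by limma) became -0.08 without Rip-B7xAI4 replicate 3. Crtam itself was lowest on that array, at 6.70, and nearly as low in AI4 replicate 3, at 6.72, where Cadm1 was 7.0.

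Among the other tested genes of the ligand list, Cadm3 was lower, at 5.26, 5.64 and 5.68 in Rip-B7xAI4 and 6.05, 5.96 and 6.00 in AI4. Its groups did not overlap, a separation that 11.9% of the tested genes showed in this direction, and the difference was -0.48 ± 0.18 (SE; adjusted p = 0.553 by limma). Cadm4 differed by -0.51 ± 0.28 (-0.31 without AI4 replicate 2 and -0.79 without AI4 replicate 3), Nectin4 by -0.29 ± 0.17 and Nectin1 by -0.15 ± 0.17. Nectin1 differed by -0.06 without Rip-B7xAI4 replicate 2 and by -0.33 without Rip-B7xAI4 replicates 1 and 3 together, and Nectin4 by -0.46 without that pair. Afdn, which encodes afadin and ties nectins to actin, differed by -0.07 ± 0.17. None of these passed (adjusted p of 0.553 to 0.849 by limma).

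Of the genes for proteins that signal with these receptors, Itgal was the one most apart. The list held 21 genes, 20 of them tested, with 0 passing limma's adjusted p. At an unadjusted p under 0.05, 1 was higher and 1 lower, against 5.56% higher and 3.17% lower over all tested genes, and the median difference was 0.09, against -0.10 over all tested genes. Itgal, the alpha chain of the integrin LFA-1 with which CD226 associates, stood at 9.45, 9.20 and 8.83 log2 in Rip-B7xAI4 and at 7.39, 7.99 and 8.06 in AI4. All 3 Rip-B7xAI4 arrays were above all AI4 arrays, which held for 5.99% of the tested genes. The difference was 1.35 ± 0.26 (SE; adjusted p = 0.228 by limma, and 1.38 without Rip-B7xAI4 replicates 1 and 3 together). Itgb2, its beta chain, which myeloid cells also express, stood at 9.71, 9.14 and 8.75 in Rip-B7xAI4 and 7.77, 8.74 and 8.65 in AI4, a difference of 0.81 ± 0.35. Fyn, a kinase that phosphorylates CD226, differed by 0.70 ± 0.39. Without AI4 replicate 1 these differences were 0.50 for Itgb2 and 0.32 for Fyn, and Fyn differed by 1.10 without Rip-B7xAI4 replicates 1 and 3 together.

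Inpp5d, which encodes the phosphatase SHIP1 recruited by TIGIT in human NK cells, stood at 8.28, 8.20 and 8.47 in Rip-B7xAI4 and at 7.21, 7.14 and 8.31 in AI4. The groups overlapped through AI4 replicate 3, and the difference was 0.76 ± 0.33 (SE). Ptpn11, the phosphatase SHP2, differed by 0.62 ± 0.31, and by 0.30 without Rip-B7xAI4 replicate 1. Prkcq, a protein kinase C of T cell receptor signalling, was lower, at 9.25, 9.26 and 8.56 in Rip-B7xAI4 and 9.53 to 10.13 in AI4. Its groups did not overlap, a separation that 11.9% of the tested genes showed in this direction, and the difference was -0.86 ± 0.27. None of these passed, with adjusted p of 0.493 to 0.584 by limma for Itgb2, Fyn, Inpp5d, Ptpn11 and Prkcq.

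Among transcriptional regulators of T and NK cell differentiation, 14 of 15 listed genes were tested, 0 passed limma's adjusted p, and 5 were higher and 0 lower at an unadjusted p under 0.05, against 5.56% and 3.17% of all tested genes. The median difference was 0.36, against -0.10 over all tested genes. Because this list was chosen with earlier results of these data known, its count cannot be read as an excess of regulators. Id2, which inhibits E proteins in effector cells, stood at 9.96, 9.30 and 9.02 log2 in Rip-B7xAI4 and at 7.27, 5.78 and 6.01 in AI4, a difference of 3.08 ± 0.44 (SE; adjusted p = 0.157 by limma). Tox, a factor of T cells under lasting stimulation, stood at 10.36, 10.34 and 8.66 in Rip-B7xAI4 and 7.05, 8.60 and 8.64 in AI4. Its groups nearly met, at 8.66 in Rip-B7xAI4 and 8.64 in AI4, and the difference was 1.69 ± 0.61 (adjusted p = 0.541).

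The T-box genes Tbx21 (T-bet) and Eomes, which direct effector and memory CD8 T cells, were both highest in Rip-B7xAI4 replicate 2, as Tigit was. Tbx21 stood at 7.22, 8.36 and 7.50 in Rip-B7xAI4 and at 6.70, 6.79 and 6.67 in AI4, with no overlap, as for 5.99% of the tested genes in this direction. Its difference was 0.97 ± 0.30 (SE; adjusted p = 0.493 by limma). Eomes stood at 7.84, 8.88 and 7.03 in Rip-B7xAI4 and at 6.61, 6.56 and 7.44 in AI4, and the groups overlapped, with a difference of 1.04 ± 0.49 (adjusted p = 0.575). Without Rip-B7xAI4 replicates 1 and 3 together these differences were 1.64 for Tbx21 and 2.00 for Eomes, and without Rip-B7xAI4 replicate 2 they were 0.64 and 0.56. Prdm1, which encodes Blimp-1, differed by 0.93 ± 0.31 (adjusted p = 0.512) and Zeb2 by 1.44 ± 0.38 (adjusted p = 0.433). Without Rip-B7xAI4 replicates 1 and 3 Prdm1 differed by 1.36 and Zeb2 by 0.64, and Zeb2 stood at 7.47 and 7.69 on the arrays with high myeloid markers and at 6.39 on Rip-B7xAI4 replicate 2.

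**Figure D4:**
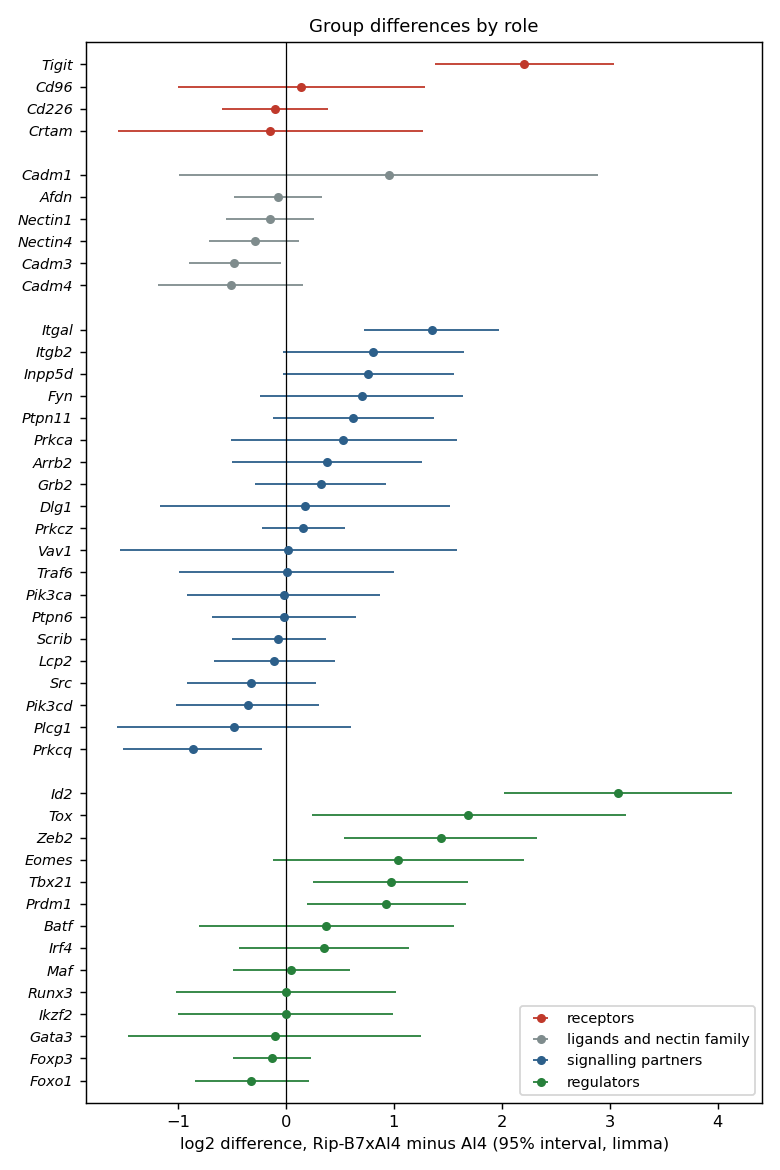
Log2 difference of Rip-B7xAI4 minus AI4 with its 95% interval from limma (horizontal axis) for each tested gene, grouped as receptors, ligands and nectin family, signalling partners and regulators. Tigit, at 2.21, is the 1 receptor gene whose interval excludes 0, and no gene shown passed adjustment over all tested genes.

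The Tigit difference was positive and larger than that of the other receptor genes in each setting tried, as the plot of settings shows. As reported, its lower bound of 1.38 was above the upper bounds of Cd96 (1.29), Cd226 (0.39) and Crtam (1.27). Over the 16 settings this held in 16 for Cd226 and in 10 each for Cd96 and Crtam. Averaged probes and the changed filters on dim genes left the receptor gene differences as they were, so these settings add little to the counts. The bounds crossed, for example, without AI4 replicate 1, at 1.10 for Tigit and 1.71 for Cd96, and under median centring, at 1.42 for Tigit and 1.43 for Cd96. For Crtam they crossed whenever a single array other than AI4 replicate 3 was left out. Without Rip-B7xAI4 replicate 3 they were 1.38 for Tigit and 1.77 for Crtam. Leaving out single arrays gave 1.94 to 2.56 for Tigit, -0.24 to 0.56 for Cd96, -0.24 to -0.01 for Cd226 and -0.61 to 0.46 for Crtam.

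**Figure D5:**
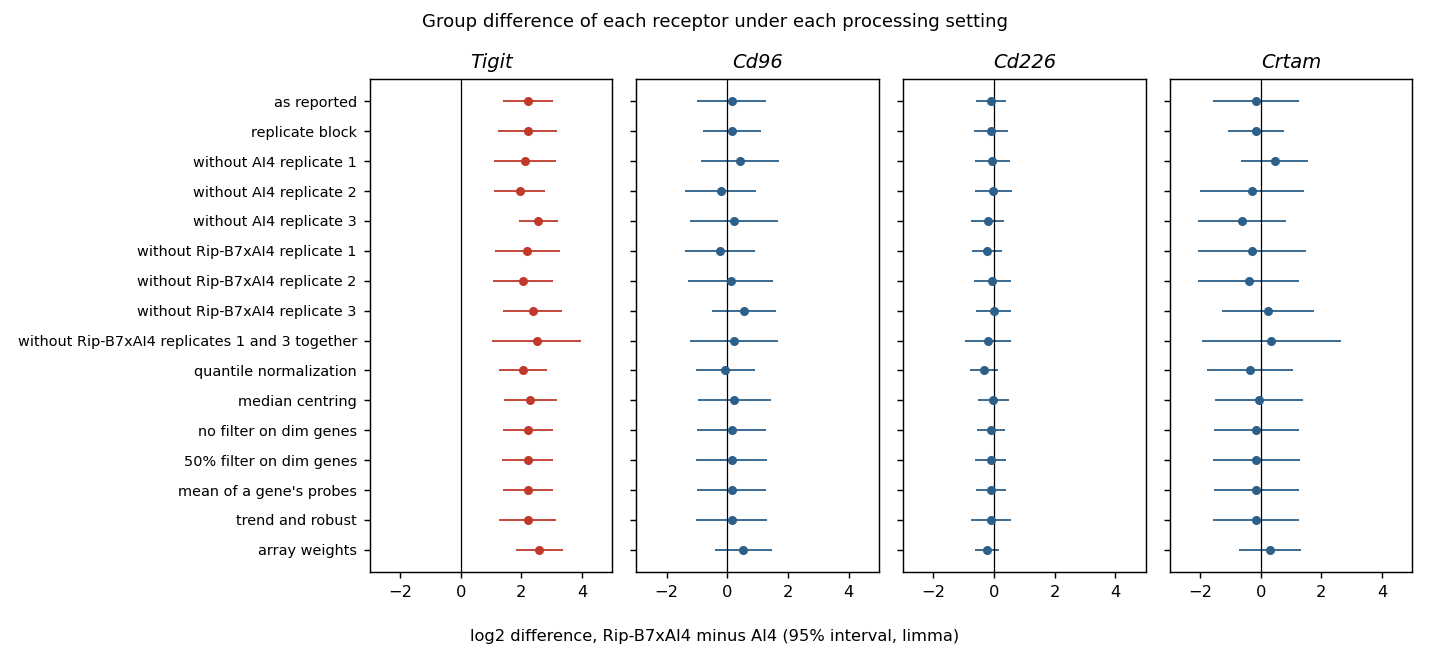
Log2 difference of Rip-B7xAI4 minus AI4 with its 95% interval from limma (horizontal axis) for each receptor gene, as reported and under 15 other settings (rows). Tigit stays between 1.94 and 2.59, Cd226 between -0.33 and -0.01, and Cd96 and Crtam fall on both sides of 0.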

How the data were processed

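The deposited table of normalized values came from Affymetrix Expression Console, per the submitters' processing notes. No source used here states its version or algorithm, and the log2 scale of the deposited values was read from their range. The table held 28325 probes, of which 21760 had 1 gene symbol in the platform annotation, 1621 several and 4944 none. The brightest probe of each gene was kept, and genes in the lowest 30% by mean, below 5.471, were left out of the test. Log2 values were used as deposited and fitted with limma 3.58.1 in R 4.3.3 by group, two-sided, with Benjamini-Hochberg adjustment over 13950 genes. Differences are Rip-B7xAI4 minus AI4. No background measure was used here, and 3 arrays per group limit the precision. The receptor genes and the gene lists were chosen with earlier results of these data known.

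The genes named were the 4 receptor genes, all ligand genes, up to 6 genes by smallest p of each other list with Eomes, Tbx21 and Prdm1, the 3 genes closest in profile to each receptor gene, Vtcn1, and markers that bear on a receptor gene. The fit was tested on simulated data. Alternatives were a replicate block, leaving out arrays, quantile normalization, median centring, a filter on dim genes at 50% or none, averaged probes, a robust eBayes with a trend, and array weights. No receptor gene had a second probe, and a pseudocount did not apply to log2 values. Deviations from group means of samples with the same replicate number had correlations of -0.08, 0.06 and -0.22 over all tested genes, so the numbers were not taken as pairs.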

Additional observations from a re-analysis of the deposited data

How the results depend on the processing

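Tigit kept its direction under all 15 alternatives and passed only with array weights (2.59, adjusted p = 0.0462 by limma), which gave AI4 replicate 2 and Rip-B7xAI4 replicate 2 weights of 2.64 and 2.49 and the others 0.415 to 0.803. With the replicate block its difference was 2.21 (adjusted p = 0.337), and the block changed no call of a receptor gene. Cd226 kept its direction throughout. Cd96 was -0.06 after quantile normalization and -0.24 to 0.56 without single arrays, and Crtam was 0.31 with array weights, 0.35 without Rip-B7xAI4 replicates 1 and 3 together and -0.61 to 0.46 without single arrays. With that pair of Rip-B7xAI4 arrays left out Cadm1 was -0.06 and Afdn 0.01, and Afdn was also 0.01 under median centring. Without single arrays Cadm1 ranged from -0.08, without Rip-B7xAI4 replicate 3, to 1.48, and Afdn from -0.15 to 0.01. The count over all tested genes was 1 as reported, 0 with the replicate block, 0 with that pair of arrays left out, 38 with array weights (35 higher and 3 lower), and 0 to 22 without single arrays, with 22 without Rip-B7xAI4 replicate 2. With array weights 1 gene of the regulator list passed, Id2 (3.36, adjusted p = 0.0393), and 0 genes of the ligand and signalling lists passed under any setting. The causes were not tested. The shifts of Tigit against Cd96, Cd226 and Crtam were run under 10 alternatives each (the replicate block, arrays left out, quantile normalization and averaged probes) and kept their sign there, between 1.67 and 3.17.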

Other observations

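The genes closest in profile to the other receptor genes were read by the same measure over the 6 arrays. They were picked for likeness, so the array patterns they share with a receptor gene follow from that choice. For Cd96 they were Hif1a, Runx3 and Sart3, at root mean square differences of 0.11, 0.13 and 0.15 log2. Runx3, a factor that CD8 T cells need for their identity, stood at 9.85, 8.99 and 8.35 in Rip-B7xAI4 and at 9.47, 8.49 and 9.22 in AI4, with replicate 2 the lowest AI4 array and replicate 3 the lowest Rip-B7xAI4 array, as for Cd96. For Crtam they were Dnajb1, Ap2s1 and Rfesd (0.19, 0.19 and 0.22). Dnajb1, a heat shock cochaperone, stood at 7.80, 7.74 and 6.59 in Rip-B7xAI4 and at 9.14, 7.10 and 6.79 in AI4, so it shared the high value of AI4 replicate 1. For Cd226 they were Smpd4, Scd2 and Zfp3, all at 0.06. After quantile normalization 1 of the 3 genes was shared for Cd96, 2 for Crtam and 0 for Cd226, against 3 for Tigit.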
